A study of Rattus norvegicus with 12 samples.

Results

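The 10 genes described here encode the contractile apparatus of smooth muscle and its main transcriptional coactivator: Myh11, Acta2, Actg2, Tagln, Cnn1, Smtn, Lmod1, Des, Mylk and Myocd. They were taken by platform gene symbol from the 14506 named genes measured in rat epididymal white adipose tissue, an abdominal fat depot of males. All 10 were found, each on 1 probe set, and no filter on low values was applied. One Affymetrix Rat Gene 1.0 ST array was run for each of 12 male Sprague-Dawley rats, and levels are log2 values made by the authors with RMA. The groups were 4 fed rats, 4 rats fasted until phase 2 and 4 rats fasted until phase 3. The labels name no transgene and no drug, and neither the age of the rats nor the length of the fasts is given in the sources used here. The fat pad was sampled whole, so every level is that of a mixture of cells.

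Smooth muscle cells contract when calcium activates myosin light chain kinase, which phosphorylates the light chain of smooth muscle myosin and lets it pull on actin filaments. In a fat pad these cells form the wall of arteries, arterioles and veins, and pericytes on the capillaries share part of the programme. The contractile genes are switched on together by serum response factor (SRF), a transcription factor that binds a DNA element called the CArG box, with the coactivator myocardin. In a long fast, phase 2 is the stretch in which fat stores are the main fuel and body protein is spared, and phase 3 the later stretch in which protein breakdown rises.

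The CArG boxes upstream of Acta2 are shown because this element is the known link between the contractile genes and SRF. RefSeq promoter windows of assembly GRCr8, from 250 bases before the start site to 50 bases after it, were matched for 6 of the 10 genes, namely Acta2, Actg2, Cnn1, Mylk, Des and Smtn. The exact box, a pair of C, 6 bases that are A or T, and a pair of G, reads the same on both strands as a pattern. It lay in 0 of the 6 windows and in 1.64% of all 27457 windows of that length. With at most 1 C or G allowed among the 6 inner bases, a form searched after the exact one, the box lay in 1 of the 6, Acta2, and in 9.27% of all windows. The Acta2 window held it at 2 places, and 0.852% of all windows held it at 2 or more. No match says only that these letters are not in this window. The 250 bases before the Acta2 start site, at chr1:241172504-241172753 on the minus strand, are given with both boxes in capitals.
Acta2: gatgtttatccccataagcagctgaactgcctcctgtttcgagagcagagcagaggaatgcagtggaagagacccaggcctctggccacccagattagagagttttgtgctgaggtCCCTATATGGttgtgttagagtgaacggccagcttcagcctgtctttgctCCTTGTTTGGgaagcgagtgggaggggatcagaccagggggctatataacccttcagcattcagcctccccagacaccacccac

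The boxes of Acta2 can be set beside those of Srf, which encodes SRF and carries exact boxes in its own promoter. The capitals mark the box, with 10 bases on either side. Each Acta2 box has 1 inner C or G and each Srf box has none. Their first bases lie 134 and 84 bases before the Acta2 start site and 81 and 61 bases before the Srf start site. The motif CATTCC, known to bind TEAD factors and searched on both strands, lay in the windows of Acta2 and Mylk and in 13.9% of all windows. The FOXO motif GTAAACA, also searched on both strands, lay in 0 of the 6 windows and in 3.76% of all. These are matches of letters, and binding was not measured.
Acta2 distal: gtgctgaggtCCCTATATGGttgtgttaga
Acta2 proximal: tgtctttgctCCTTGTTTGGgaagcgagtg
Srf distal: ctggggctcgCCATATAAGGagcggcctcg
Srf proximal: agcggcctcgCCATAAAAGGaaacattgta

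The arrays had medians over all probe sets between 6.03 and 6.13. Over the named genes the mean of the array medians was 6.97 for the fed group, 6.91 for phase 2 and 6.82 for phase 3, a difference of -0.155 between phase 3 and fed. With each array centred on its median, 6115 of all genes were called higher and 2670 lower in phase 3 than in fed rats, in place of 3066 and 3523. The split in phase 2 was then 2029 and 1796 in place of 1401 and 2248, and between the phases 3115 and 1683 in place of 1853 and 2193. Centring moved the calls of many lists, mostly towards rises, and such counts stand beside those reported where they differ most. Phase 3 rat 3 stood apart, with the lowest upper quartile (7.83) and a score of 24.88 on the third principal component, opposite to phase 3 rat 2 (-22.65), and counts without it are given. The adipocyte list had a mean log2 level of 11.96 in fed rats, 11.66 in phase 2 and 10.32 in phase 3, with Adipoq, the adiponectin gene, at 13.15 ± 0.019, 13.09 ± 0.058 and 11.63 ± 0.477 (SD, n = 4). In bulk tissue, fewer cells of a type and less RNA per cell cannot be told apart.

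Against fed rats, all 10 genes were higher in phase 2 and 9 of 10 were higher in phase 3, by a median of 1.06 and 1.07 on the log2 scale. Over all genes tested 9.66% were called higher and 15.5% lower in phase 2, 25.2% in all, and 21.1% higher and 24.3% lower in phase 3, 45.4% in all (limma, Benjamini-Hochberg adjusted p below 0.05). The median difference of all genes was 0.01 and 0.05. Dim genes, which can hardly be called, lower these shares. Without the dimmest 40% of genes, 1356 of 8703 were higher and 2171 lower in phase 2, and 2474 and 3185 in phase 3. Of the contractile genes, 10 and 9 were then still called higher. All fasted rats lay above all fed rats for 8 of the 10 genes in phase 2 and 6 of 10 in phase 3, against 12.6% and 19.2% of all genes. A call of at least 2-fold was made for 5 of the 10 in phase 2 and 6 in phase 3, against 1.15% and 3.25% of all genes. Both comparisons share the fed rats. Between phase 2 and phase 3, 1 of the 10 was called, Myocd, which was higher in phase 3. Over all genes 12.8% were higher and 15.1% lower there, 27.9% in all, with 1.45% higher by at least 2-fold, a size that Myocd did not reach. No gene of the 10 had phase 3 rats wholly apart from phase 2 rats, against 12.4% of all genes higher and 14.0% lower.

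**Figure D1:**
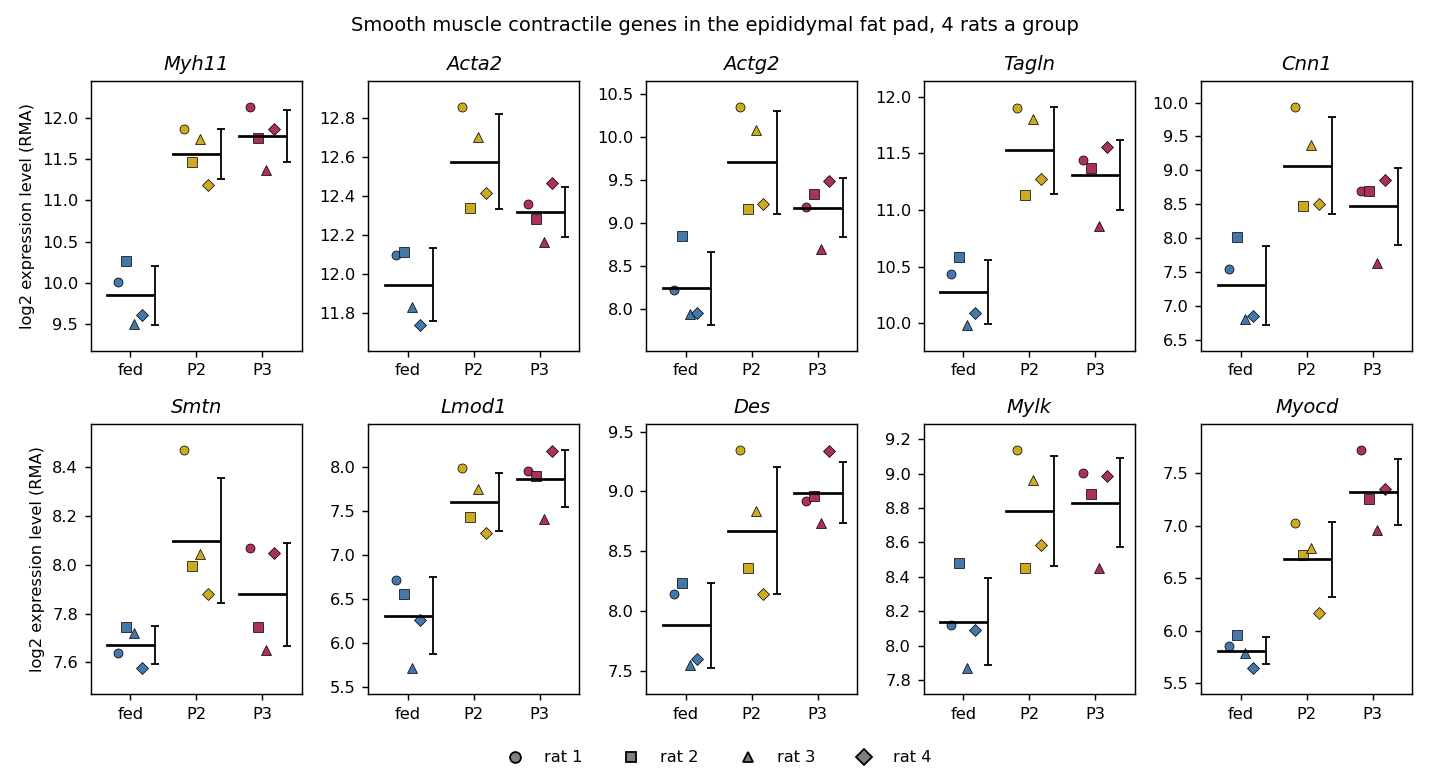
Log2 expression level (y axis, RMA) of the 10 contractile genes in fed, phase 2 (P2) and phase 3 (P3) rats. Each point is 1 rat, with the symbol giving its number, bars are group means and whiskers the SD over 4 rats. The y axes differ between panels and do not start at 0. In 8 panels every phase 2 rat lies above every fed rat, the exceptions being Mylk and Des.

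Myh11, the heavy chain of smooth muscle myosin that forms the thick filament (probe set 10731247), was at log2 levels of 10.02, 10.26, 9.50 and 9.62 in the 4 fed rats. It was at 11.86, 11.46, 11.74 and 11.19 in phase 2 and at 12.13, 11.76, 11.37 and 11.87 in phase 3. All fasted rats lay above all fed rats, and the fasted groups overlapped. The difference from fed was 1.71 ± 0.194 (SE) in phase 2, which is 3.28-fold (adjusted p = 2.54e-05), and 1.93 ± 0.194 in phase 3, which is 3.81-fold (adjusted p = 1.77e-06). Among all genes tested, 36 had a more positive difference in phase 2 and 107 in phase 3.

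The thin filament is built from actin, of which smooth muscle has a vascular-type form, encoded by Acta2, and an enteric-type form, encoded by Actg2. Acta2 (probe set 10940457) lay between 11.74 and 12.11 in fed rats, between 12.34 and 12.86 in phase 2 and between 12.17 and 12.47 in phase 3. No fed rat reached the lowest fasted rat. Acta2 rose by 0.63 ± 0.125 in phase 2 (1.55-fold, adjusted p = 0.0019) and by 0.37 ± 0.125 in phase 3 (1.3-fold, adjusted p = 0.0248; alternatives gave 0.00186 to 0.0818). Leaving out any of fed rats 3 and 4 and phase 3 rats 1 and 4 ended the phase 3 call, with adjusted p from 0.0509 to 0.0818.

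Actg2 (probe set 10863549) was at 8.23, 8.85, 7.94 and 7.96 in fed rats, at 10.35, 9.17, 10.09 and 9.22 in phase 2 and at 9.19, 9.35, 8.70 and 9.49 in phase 3. Phase 2 rats 1 and 3 were the high ones, and fed rat 2 lay above phase 3 rat 3. Actg2 rose by 1.46 ± 0.274 in phase 2 (2.75-fold, adjusted p = 0.00132) and by 0.93 ± 0.274 in phase 3 (1.91-fold, adjusted p = 0.0121). Both estimates exceeded those of Acta2, and the log2 ratio of Actg2 to Acta2 within an array, of which only the change has a meaning, was used to test this. It ran from -3.89 to -3.26 in fed, from -3.19 to -2.51 in phase 2 and from -3.47 to -2.94 in phase 3 rats, so that fed rats overlapped phase 3 but not phase 2. The ratio was higher by 0.83 in phase 2 than in fed rats (exact permutation p = 0.0286, two-sided, the smallest that 4 against 4 rats can give) and by 0.56 in phase 3 (exact p = 0.0571). Neither passed after adjustment over the 3 comparisons (Benjamini-Hochberg adjusted exact p = 0.0857 for each). Of the other actins that share much of their coding sequence, Acta1 of skeletal muscle differed by 0.34 ± 0.142 in phase 2 (adjusted p = 0.0964) and Actc1 of heart by 0.07 ± 0.131 (adjusted p = 0.781). Whether probes read more than 1 actin was not tested. The mean level of Acta2 lay above that of 99.6% of all genes and the mean level of Actg2 above that of 83.5%. Whether this bears on the ratio was not tested.

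Of the genes of actin-binding proteins, Tagln encodes transgelin (SM22), a small protein that bundles actin (probe set 10917034). It lay between 9.99 and 10.58 in fed rats, 11.13 and 11.90 in phase 2 and 10.86 and 11.56 in phase 3, with no fed rat above a fasted one. It rose by 1.25 ± 0.196 in phase 2 (2.38-fold, adjusted p = 0.000352) and by 1.03 ± 0.196 in phase 3 (2.05-fold, adjusted p = 0.000581).

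Cnn1, calponin, which binds actin and restrains the myosin ATPase (probe set 10908596), was at 7.55, 8.01, 6.81 and 6.86 in fed rats, at 9.93, 8.47, 9.37 and 8.51 in phase 2 and at 8.69, 8.70, 7.63 and 8.85 in phase 3. Phase 3 rat 3 fell below fed rat 2. Cnn1 had the widest spread within groups, with an SD of 0.578, 0.71 and 0.562. It rose by 1.76 ± 0.359 in phase 2 (3.39-fold, adjusted p = 0.00231), where 32 of all genes tested had a more positive difference, and by 1.16 ± 0.359 in phase 3 (2.24-fold, adjusted p = 0.0162; alternatives gave 0.002 to 0.0531). Leaving out any of fed rats 3 and 4 and phase 3 rat 4 ended the phase 3 call, with adjusted p from 0.0502 to 0.0531.

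Lmod1, leiomodin, which starts new actin filaments in smooth muscle (probe set 10764214), lay between 5.72 and 6.71 in fed rats, 7.24 and 7.98 in phase 2 and 7.41 and 8.18 in phase 3, so that fed and fasted rats did not overlap. It rose by 1.29 ± 0.217 in phase 2 (2.44-fold, adjusted p = 0.000604) and by 1.55 ± 0.217 in phase 3 (2.93-fold, adjusted p = 3.99e-05). Smtn, smoothelin, a cytoskeletal protein of contractile cells (probe set 10777972), showed the smallest differences from fed of the 10. Its level was 7.58 to 7.75 in fed rats, 7.88 to 8.47 in phase 2 and 7.65 to 8.07 in phase 3, so that phase 3 but not phase 2 overlapped the fed group. It rose by 0.43 ± 0.128 in phase 2 (1.34-fold, adjusted p = 0.0242; alternatives gave 0.00537 to 0.0704). Leaving out any of fed rats 1 and 4 and phase 2 rat 1 ended that call, with adjusted p from 0.0571 to 0.0704. In phase 3 it differed by 0.21 ± 0.128 (adjusted p = 0.203, 95% interval -0.07 to 0.48), and by 0.36 with centred arrays, where it was called (adjusted p = 0.0213).

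Des, desmin, the intermediate filament that links dense bodies and is shared with striated muscle (probe set 10924507), was at 8.14, 8.23, 7.55 and 7.60 in fed rats, at 9.34, 8.36, 8.83 and 8.14 in phase 2 and at 8.92, 8.96, 8.73 and 9.34 in phase 3. Phase 2 rat 4 lay among the fed rats, while all phase 3 rats lay above them. Des rose by 0.79 ± 0.235 in phase 2 (1.73-fold, adjusted p = 0.0234; alternatives gave 0.00866 to 0.0751) and by 1.11 ± 0.235 in phase 3 (2.16-fold, adjusted p = 0.00136). Leaving out any of fed rats 3 and 4 and phase 2 rats 1 and 3 ended the phase 2 call, with adjusted p from 0.0608 to 0.0751.

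Mylk, the gene of myosin light chain kinase, the enzyme that starts contraction (probe set 10754510), lay between 7.87 and 8.48 in fed rats, 8.45 and 9.13 in phase 2 and 8.45 and 9.01 in phase 3. Fed rat 2 alone overlapped the fasted groups. Mylk rose by 0.64 ± 0.17 in phase 2 (1.56-fold, adjusted p = 0.0123) and by 0.69 ± 0.17 in phase 3 (1.61-fold, adjusted p = 0.00401).

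Myocd, which encodes myocardin (probe set 10743652), was the one gene that also differed between the fasting phases. It was at 5.85, 5.96, 5.79 and 5.65 in fed rats, at 7.02, 6.72, 6.79 and 6.17 in phase 2 and at 7.72, 7.25, 6.96 and 7.35 in phase 3. The groups stood in steps, with an overlap of phase 2 rat 1 and phase 3 rat 3. Myocd rose by 0.87 ± 0.174 in phase 2 (1.82-fold, adjusted p = 0.0021) and by 1.51 ± 0.174 in phase 3 (2.85-fold, adjusted p = 6.32e-06). Phase 3 exceeded phase 2 by 0.64 ± 0.174 (1.56-fold, adjusted p = 0.0127; the 22 alternatives, in all of which it passed, gave 0.00463 to 0.0373). Its fed level was close to 5.80, the level that 95% of the values of 53 olfactory receptor genes, taken as mostly silent in fat, did not exceed, so the folds from fed are not exact.

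**Figure D2:**
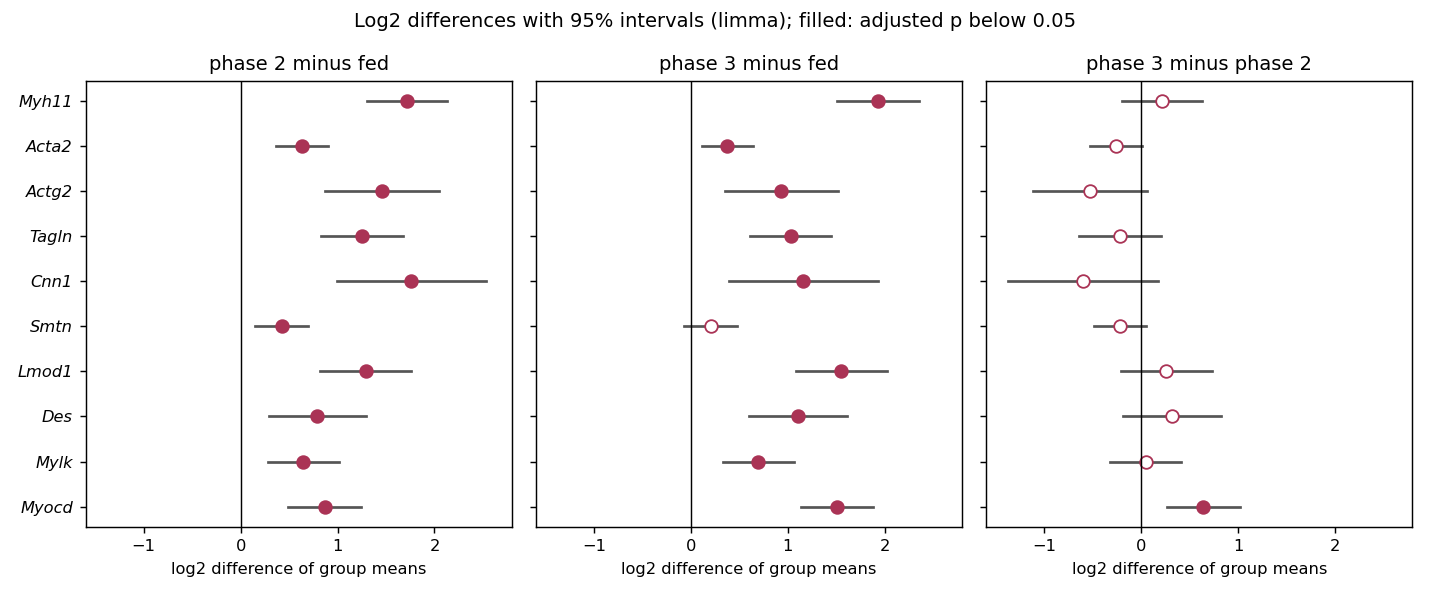
Log2 differences of group means (x axis) of the 10 genes for phase 2 minus fed, phase 3 minus fed and phase 3 minus phase 2, with 95% intervals from limma as lines. Filled points passed an adjusted p below 0.05. All 10 are filled on the left, 9 in the middle and Myocd alone on the right.

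From phase 2 to phase 3 the other 9 genes did not pass the test, and their differences had both signs. Myh11, Lmod1, Des and Mylk had positive differences, of 0.22, 0.26, 0.32 and 0.05 (that of Mylk turned negative on leaving out any of phase 2 rats 2 and 4 and phase 3 rats 1 and 4), and Tagln, Acta2, Actg2, Cnn1 and Smtn negative ones, of -0.22, -0.26, -0.53, -0.60 and -0.22. The adjusted p ranged from 0.146 (Acta2) to 0.874 (Mylk). The intervals leave room for changes in either direction. For Actg2 the 95% interval ran from -1.12 to 0.06, for Cnn1 from -1.37 to 0.17, for Acta2 from -0.53 to 0.01 and for Des from -0.19 to 0.82. Without phase 3 rat 3, the same numbers of genes passed, 9 in phase 3 against fed and 1 in phase 3 against phase 2. With centred arrays, the differences from fed in phase 3 lay between 0.36 for Smtn and 2.08 for Myh11, and all 10 passed.

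Within each group the genes went up and down together from rat to rat. Phase 2 rat 1 had the highest level of its group for 10 of 10 genes and fed rat 2 for 9 of 10, while phase 3 rat 3 had the lowest for 10 of 10 and fed rat 3 for 7 of 10. Averaged over the 10 genes, the deviation from the group mean was 0.46 in phase 2 rat 1, 0.34 in fed rat 2 and -0.40 in phase 3 rat 3. The correlation of these deviations over the 12 arrays was above 0 for all 45 pairs of genes, with a median of 0.833 and a range of 0.582 to 0.977. Cnn1 and Tagln were closest, and Smtn and Lmod1 least close. Myocd followed the others less closely than Cnn1 did, with a median of 0.691 against 0.919. These correlations are descriptions. The points share arrays and their normalisation.

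**Figure D3:**
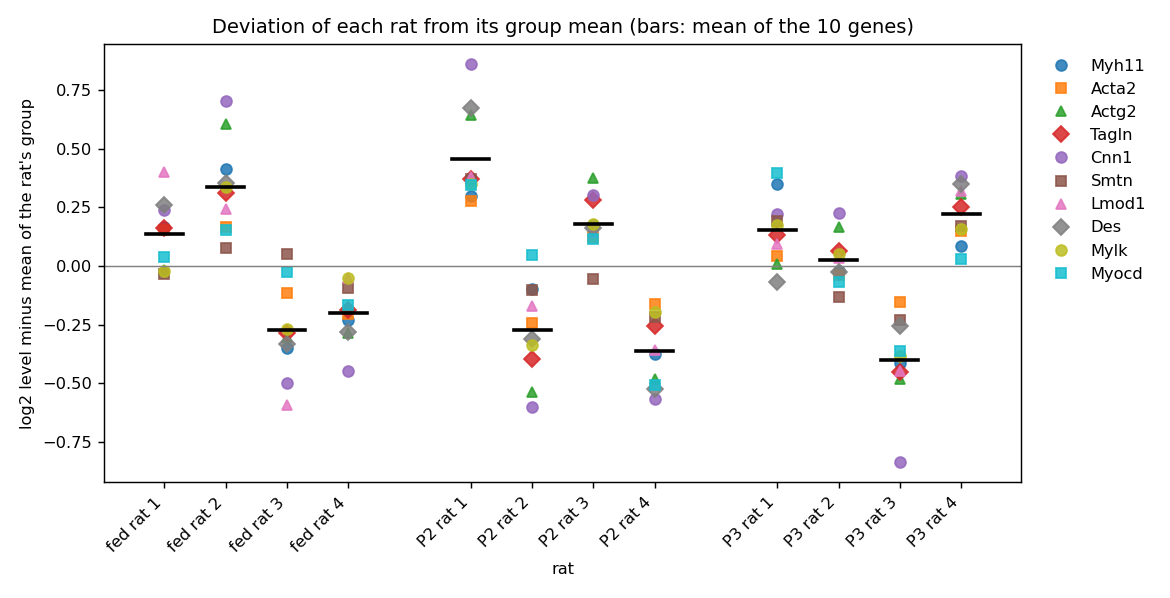
Log2 level of each of the 10 genes in each rat minus the mean of the rat's group (y axis), by rat (x axis, with P2 and P3 for the fasting phases). Coloured symbols are genes and black bars the mean of the 10 genes. Phase 2 rat 1 has all its symbols above 0 and phase 3 rat 3 all below 0, with Cnn1 at the far end in both.

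Of 32 further filament and anchor genes measured, 6 rose and 9 fell in phase 2, with a median of 0.01, and 8 rose and 16 fell in phase 3, with a median of -0.26. The count of rises in phase 2 was 3 without fed rat 4. With centred arrays, 12 rose and 8 fell in phase 2, and 10 rose and 12 fell in phase 3. Counts of this and all later lists stand beside 9.66% of all genes higher and 15.5% lower in phase 2. The shares were 21.1% and 24.3% in phase 3, and 12.8% and 15.1% between the phases. For centred arrays, 2029 of 14506 genes were higher and 1796 lower in phase 2, and 6115 and 2670 in phase 3. Tpm2, a tropomyosin of the thin filament, rose by 1.21 in phase 2 and 0.98 in phase 3, while Myl9, the light chain that the kinase phosphorylates, rose by 0.70 ± 0.175 in phase 2 (adjusted p = 0.00856) and differed by 0.43 ± 0.175 in phase 3 (adjusted p = 0.0609). Both were chosen after their values were seen. The falls with the smallest adjusted p were those of Itga7, a laminin receptor of muscle (-1.55 ± 0.106 in phase 2 and -2.54 ± 0.106 in phase 3), and Sgca, a sarcoglycan (-1.75 ± 0.155 and -2.18 ± 0.155). The largest of these adjusted p was 2.87e-06 (limma). Myh10, a non-muscle myosin heavy chain, fell by 0.71 in phase 2, and Tagln2, a relative of Tagln found in many cell types, by 0.65 in phase 2 and 1.29 in phase 3. From phase 2 to phase 3, 2 of the 32 rose and 9 fell, among them Vcl, vinculin (-0.70), and the rising Csrp2, a LIM protein of smooth muscle (1.04).

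Among 23 genes that set the phosphorylation of the myosin light chain, 7 rose and 2 fell in phase 2 and 7 rose and 7 fell in phase 3. The phase 2 falls were 1 when fed rat 1, fed rat 2 or phase 2 rat 3 was left out and 4 without phase 3 rat 1, and the phase 3 split was 9 and 5 with centred arrays. Gucy1a1, a subunit of the nitric oxide receptor, rose by 0.49 ± 0.134 and 0.98 ± 0.134 in phase 2 and phase 3. Irag1, a target of the cGMP-dependent kinase, rose by 0.69 and 0.66, and Pde3a, a phosphodiesterase that breaks down cyclic nucleotides, by 0.85 and 0.94. Ppp1cb, the catalytic subunit of myosin phosphatase, rose by 0.24 and 0.46. Ppp1r14a, an inhibitor of that phosphatase, was lower in phase 3 than in phase 2 by 0.64 ± 0.14 (adjusted p = 0.00353), while its call against fed (-0.36, adjusted p = 0.0464) was made in 7 of 22 alternatives. Between the phases 2 rose and 2 fell, or 3 and 1 with centred arrays.

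Of 34 channels and receptors of contraction, 16 rose and 2 fell in phase 2, and 12 rose and 8 fell in phase 3. The phase 3 counts were 17 and 4 with centred arrays, and the falls were 5 without fed rat 3. Agtr1a, the angiotensin receptor, rose by 0.83 ± 0.101 and 1.17 ± 0.101, Ptgir, the prostacyclin receptor, by 0.87 in phase 2 and Itpr1, the calcium release channel, by 1.53 ± 0.156 in phase 3. Oxtr, the oxytocin receptor, fell by 5.27 and 5.21, and Cav1, the caveolin gene, by 0.53 and 0.62. These were the falls called in phase 2, and in phase 3 Atp2b4, a calcium pump of the cell membrane, fell by 1.21 against fed. Between the phases 6 rose and 6 fell. Atp2b4 fell by 1.26 there and Adra1a, an adrenergic receptor, by 0.93.

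Srf, the partner of Myocd, did not pass the test in any comparison. It lay between 7.67 and 7.93 in fed, 7.56 and 7.91 in phase 2 and 7.38 and 7.95 in phase 3 rats, and differed from fed by -0.06 ± 0.122 (adjusted p = 0.769) and -0.07 ± 0.122 (adjusted p = 0.661), with 95% intervals of -0.33 to 0.20 and -0.33 to 0.19. Klf4, a repressor of contractile genes, differed by 0.20 ± 0.111 in phase 2 (adjusted p = 0.227) and by -0.12 ± 0.111 in phase 3 (adjusted p = 0.393). Of 41 measured factors and signals known to set smooth muscle genes, 13 rose and 2 fell in phase 2, 12 rose and 6 fell in phase 3, and 4 rose and 7 fell between the phases. Leaving out any of fed rats 1, 3 and 4 and phase 2 rat 1 brought the rises in phase 2 to 7 or 8, and there was 1 fall without phase 2 rat 1. With centred arrays, 16 rose and 1 fell in phase 2, 18 rose and 4 fell in phase 3, and 9 rose and 4 fell between the phases, so that the last split turned round. Pdgfrb, the platelet-derived growth factor receptor of mural cells, rose by 0.76 and 0.71, Tead1 by 0.78 in phase 2, Tgfb2 by 1.52 and its receptor Tgfbr1 by 1.37 in phase 3. Notch3, a receptor of mural cells, went from 8.71 ± 0.0663 in fed to 9.14 ± 0.253 in phase 2 and 8.18 ± 0.209 in phase 3 (SD, n = 4). It was higher than fed in phase 2 (adjusted p = 0.0197), a call lost on leaving out fed rat 1 or phase 2 rat 1, and lower than fed in phase 3 (adjusted p = 0.00304). Of 15 SRF targets outside the contractile set 2 rose and 1 fell in phase 2 and 5 rose and 3 fell in phase 3. With centred arrays, 5 rose in phase 2 and 6 in phase 3, and 2 fell in phase 2 without phase 3 rat 3. Over all genes 9.66% rose and 15.5% fell in phase 2, and 21.1% rose and 24.3% fell in phase 3. Ccn2, a growth factor gene, rose by 1.60 in phase 2, and Actb, the cytoplasmic actin, fell by 0.27 and 0.61.

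**Figure D4:**
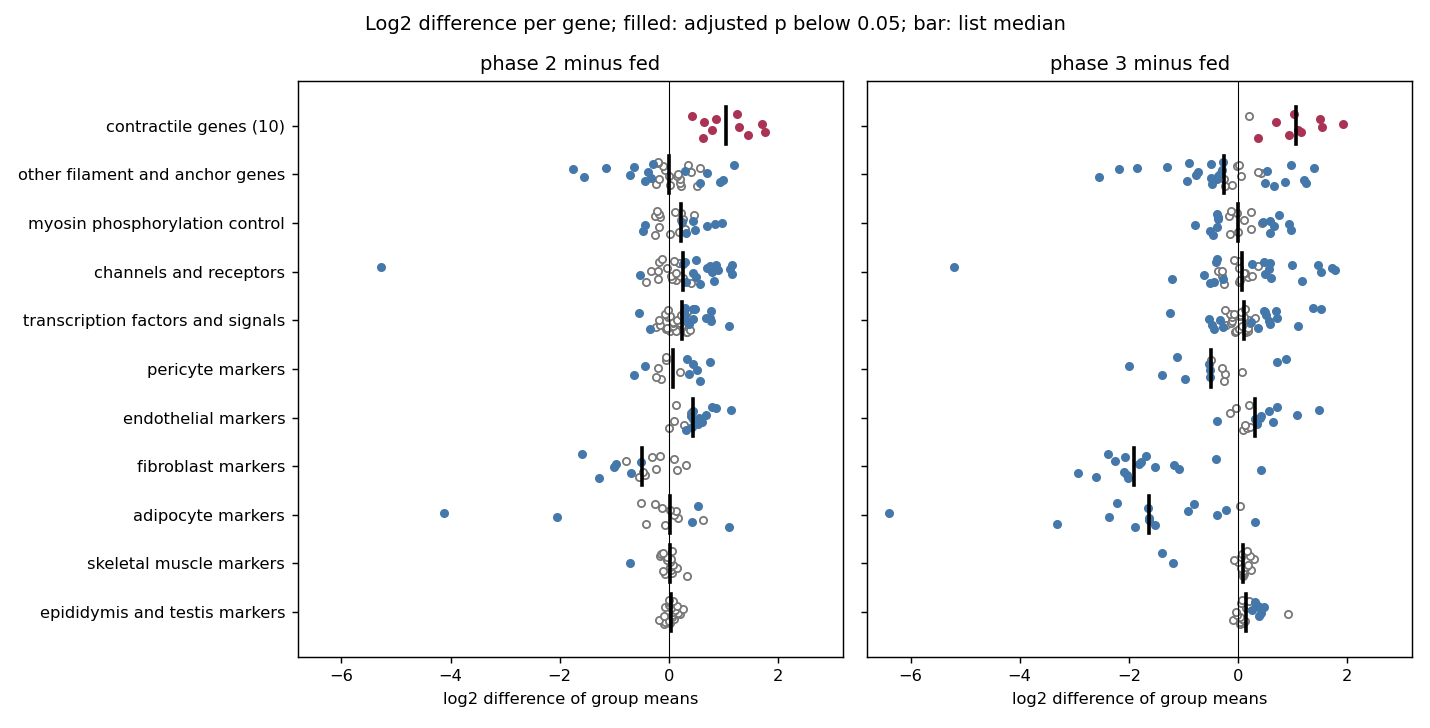
Log2 difference from fed (x axis) of each gene of 11 lists in phase 2 (left) and phase 3 (right). Filled points passed an adjusted p below 0.05, open points did not, and black bars are list medians. The 10 contractile genes lie to the right of 0 in both panels, with medians of 1.06 and 1.07, while fibroblast and adipocyte markers have medians of -1.91 and -1.63 in phase 3.

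Markers of the other cells of a fat pad moved at the same time, and their part in the results was not tested. Of 17 endothelial markers 12 rose and 0 fell by limma in phase 2 (0 lower at an unadjusted p below 0.05), with a median of 0.44, and 9 rose and 1 fell in phase 3, with a median of 0.32. The fall was that of Fabp4 (-0.38), which is also on the adipocyte list. With centred arrays, 13 rose in phase 2, and 12 rose and 0 fell in phase 3. Pecam1, an adhesion protein of endothelium, rose by 0.69 ± 0.0696 and 1.08 ± 0.0696. The mean log2 level of the list ran from 8.97 to 9.10 in fed rats, 9.40 to 9.57 in phase 2 and 9.30 to 9.45 in phase 3. Of 14 pericyte markers, 6 rose and 2 fell in phase 2, with 3 rises without fed rat 1, and 2 rose and 7 fell in phase 3, or 3 and 5 with centred arrays. The largest rise of the list in phase 2 was that of Pdgfrb (0.76), which, like Notch3, is also among the factors and signals above. Mcam, an adhesion protein, fell by 2.00 ± 0.116 in phase 3, and Cspg4, the proteoglycan NG2, was among the falls in both phases. Rgs5, a regulator of G protein signalling, differed by -0.05 ± 0.205 (adjusted p = 0.911) and -0.50 ± 0.205 (adjusted p = 0.0625). The mean level of this list ran from 8.84 to 9.01, 8.81 to 9.23 and 8.29 to 8.54.

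Fibroblast markers fell in 6 of 16 cases in phase 2 and in 15 of 16 in phase 3. In phase 3 Col3a1, a collagen chain, was at -2.93 ± 0.167, and the 1 rise was that of Dcn (0.42). The mean level of the fibroblast list went from between 10.65 and 10.82 in fed rats to between 9.97 and 10.32 and between 8.69 and 9.33. Of 15 adipocyte markers 2 fell and 3 rose in phase 2, and 13 fell and 1 rose in phase 3. Mesothelial markers fell in 6 of 9 and 7 of 9 cases. Lymphatic markers rose in 4 of 6 and fell in 1 of 6 in both phases, with Reln at 1.49 and 1.79, and leaving out any of fed rat 4 and phase 2 rats 1 and 3 left 2 rises in phase 2. The phase 2 fall was lost when fed rat 2, phase 2 rat 1 or phase 2 rat 3 was left out, and with centred arrays. Macrophage markers held 2 rises and 1 fall of 12 in phase 2 and 5 and 3 in phase 3. The phase 3 rises were 3 without fed rat 4 or phase 3 rat 2, and the falls were 5 without phase 3 rat 2 while leaving out any of fed rats 1 to 3 and phase 3 rats 1 and 4 brought them to 1. With centred arrays, 6 rose and 1 fell. The 9 Schwann cell and nerve markers held 3 falls and then 1 rise and 4 falls. Hepatocyte markers, measured because the labels' extraction text speaks of liver, held 2 falls of 10 and then 3, and with centred arrays also 3 rises in phase 3. Their levels differed widely. Alb, serum albumin, ran from 7.71 to 8.86 among fed rats (mean 8.33), from 8.27 to 10.78 in phase 2 (mean 9.62) and from 5.20 to 8.34 in phase 3 (mean 6.73), with the highest value in phase 2 rat 3 and the lowest in phase 3 rat 3. It differed from fed by 1.29 ± 0.598 in phase 2 (adjusted p = 0.139). Its fall of 1.59 in phase 3 (adjusted p = 0.0423) was called in 10 of 22 alternatives. Tf, transferrin, lay at 11.12, 10.62 and 10.18, and Ttr, transthyretin, at 3.95, 3.94 and 4.14. The source of the Alb signal was not tested.

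Other muscle and the neighbouring epididymis also hold some of the 10 genes. The mean log2 level of 17 skeletal muscle markers ran from 5.18 to 5.31 in fed rats, 5.16 to 5.28 in phase 2 and 5.09 to 5.45 in phase 3. By limma 0 of them rose in either phase, 1 fell in phase 2 and 2 fell in phase 3. At an unadjusted p below 0.05, 1 and 2 rose, and with centred arrays 1 and 6 were called higher. Of 7 cardiac markers 0 were called in phase 2 by limma (0 at an unadjusted p below 0.05) and 1 rose in phase 3, or 4 with centred arrays. Of 22 markers of epididymis and testis 0 were called in phase 2 by limma (1 higher and 1 lower at an unadjusted p below 0.05) and 7 rose in phase 3. The count of 7 stands beside 21.1% of all genes higher in phase 3. It was 14 with centred arrays, where 6115 of all 14506 genes were higher. It was 3 without fed rat 3 and 4 without fed rat 1 or 4. It was 0 without the dimmest 40% of genes, where dim genes are not tested. The largest difference among the calls was that of Prm2, a protamine of sperm, at 0.48 ± 0.11. Lcn5, an epididymal lipocalin, had a larger difference that was not called (0.92 ± 0.388, adjusted p = 0.0689). It stood at 6.11 in phase 3 rat 1 and between 3.43 and 4.20 in the other 11 rats. Without phase 3 rat 1, 8 of the 10 contractile genes were called higher in phase 3. Whether epididymal tissue was part of any sample was not tested. The mean level of the list ran from 4.10 to 4.19 in fed, 4.08 to 4.23 in phase 2 and 4.21 to 4.47 in phase 3 rats. These means lie below 5.80, the olfactory receptor level given for Myocd, so the differences of this list are near the floor.

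From rat to rat within groups, the mean deviations of the further filament genes, of the channels and receptors and of the phosphorylation genes correlated with those of the 10 genes at 0.94, 0.934 and 0.893 over 12 arrays, and those of the factors and signals at 0.9. The same value was 0.814 for lymphatic, 0.561 for pericyte, 0.439 for endothelial, 0.425 for fibroblast, 0.008 for adipocyte, -0.603 for mesothelial, -0.63 for cardiac, -0.43 for skeletal muscle and -0.413 for epididymis and testis markers. For the SRF targets outside the contractile set it was 0.301, for hepatocyte markers 0.016, for macrophage markers -0.121 and for Schwann cell and nerve markers -0.411. These too are descriptions over arrays that share a normalisation.

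Outside all lists, the genes whose profile over the 12 arrays was most like the mean profile of the 10 were Aebp1, which encodes a secreted matrix protein (Pearson r = 0.964), Rxfp2, the receptor of an insulin-like peptide of the testis (0.96), Abcb1a, a drug efflux pump (0.959), Myom1, myomesin (0.956), Exd2 (0.954), Sorbs2, a cytoskeletal adaptor (0.954), Mfge8, a secreted glycoprotein (0.954), and Scn7a, of the sodium channel family (0.952). They were chosen for this likeness, so no test is given. Rxfp2 went from 5.67 ± 0.917 in fed to 7.48 ± 0.898 in phase 2 and 7.42 ± 0.916 in phase 3, and its deviations within groups followed those of the 10 genes at 0.961. Its spread over rats was large in every group.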

How the data were processed

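The values are the authors' deposited log2 levels, 1 per probe set. The submitters' processing notes name RMA, Affymetrix Expression Console 1.1 and GCOS, and the version of the probe library was not given in the sources used here, and detection calls and scan dates were not used, so no batch was tested. Of 29215 probe sets, 15310 had 1 platform gene, and the brightest stood for each of 14506 genes. All 12 arrays entered 1 limma 3.58.1 model (lmFit, eBayes, R 4.3.3) with a mean per group, checked on simulated data. P-values were adjusted by Benjamini-Hochberg over all genes, and called below 0.05. Python 3.11.15 with scipy 1.17.1 ran the exact permutation tests. There were 22 alternatives. Rats are separate animals, and their number limits the precision.

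The members and the 17 other lists (299 of 338 entries measured) were chosen with earlier results of these data known. Named genes were the 10 members, up to 4 called genes with the smallest adjusted p per list and comparison, Srf, Klf4, Rgs5, Pecam1 and Adipoq, and the 8 most similar profiles. Tpm2, Myl9, Acta1, Actc1, Ttr, Lcn5, Fabp4 and Dcn were named beside that rule, after their values were seen. The same holds for Ckm, Fga, Fgb, Ahsg, Serpina1, Apoa1 and Cyp3a9. Gene positions were used only for the promoter windows, on GRCr8, and the authors' build was not given in the sources used here.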

Additional observations from a re-analysis of the deposited data

Results flagged for a closer look

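Cnn1 in phase 3 rat 3 lay at 7.633, far below the other phase 3 rats, which were between 8.692 and 8.853. Its gap to the nearest of them was 0.868 of the range of the group, above Dixon's 95% limit for 4 samples. It was 1 flag among 30 groups of values examined, of which chance flags about 1 in 20. The same rat had the lowest level of its group for all 10 genes.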

How the results depend on the processing

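The counts of called genes stayed within 1.5 times the reported ones in all 22 alternatives: 8 to 10 higher in phase 2, 7 to 10 in phase 3 and 1 in phase 3 against phase 2, with 0 lower in each. Leaving out 1 rat at a time gave the lowest counts, and 10 were higher in phase 3 with centred or quantile-normalised arrays. For single genes, 640 of 660 values kept direction and call, 14 lost the call when 1 rat was left out, 2 gained it (Smtn in phase 3), and 4 changed sign, all Mylk in phase 3 against phase 2, between -0.064 and 0.175 when 1 rat was left out. The log2 ratio of Actg2 to Acta2 in phase 2 lay between 0.707 and 0.975 when 1 rat was left out, where 4 against 3 rats cannot give an exact p below 0.0571. Deviations of rats with the same replicate number in the titles correlated above 0.1 in 4 of 12 pairs (range -0.155 to 0.188). Pairs with unlike numbers were not set beside them, so this cannot show what the numbers stand for. The replicate block changed 0 of 30 calls. Counts with the block were 10, 9 and 1. Over all genes, the counts higher in phase 3 against fed were 6115 with centred arrays and 3066 as reported. Signal over background was not measured here, which limits the low levels, such as Myocd in fed rats.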
